A study of Mus musculus with 96 samples.

Results

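Primary fibroblasts of CF-1 mouse embryos were followed by RNA-seq after serum was given back, and the comparison described here sets the hours from 19 to 23 h against the hours from 15 to 18 h. Libraries were chosen by their Cycle and hour labels alone, with no use of expression. Of the 96 libraries of the series, 95 were matched to a column of the table, and 25 of these fall in the windows. The library without a match, Cycle 1 at 12.5 h, lies outside them and was not analysed here. In Cycle 1, sampled every 0.5 h, they are 7 libraries at 15 to 18 h and 9 at 19 to 23 h. In Cycle 2, sampled every 1 h, they are 4 and 5. All cells of both Cycles had the same treatment: starvation in 0.5% fetal calf serum for 36 h, then serum raised to 20% at hour 0. No genotype, drug or untreated time-matched control sets the windows apart, so the comparison is between hours only. The cells were taken from embryos of day 13, and the labels do not say whether the libraries of a window came from separate cultures. Successive hours of 1 course are therefore the replicates of the main test, p-values measure only the spread between these libraries, and the 2 Cycles are the only repeats of the whole course. Whether the Cycles came from separate embryos is not given in the sources used here. For each of 15895 genes the difference between the windows was taken within each Cycle on the scale log2(value + 1) and the 2 differences were averaged.

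After DNA replication, cells build up the mitotic cyclins and the kinases they activate. The transcription of this group is controlled largely by the DREAM and MuvB complexes, B-Myb and Foxm1. Their targets share promoter elements, the cell cycle genes homology region (CHR) and CCAAT boxes bound by NF-Y, while genes of the G1/S transition carry E2F sites. Fibroblasts that re-enter the cycle from starvation pass through replication together for a time, and their mitotic genes rise later than their replication genes. No DNA content or mitotic index was used here, so the windows are hours, and the lists of phase genes below describe what those hours hold. The authors estimated phases from change points in cell cycle genes, on profiles that join both time series. Their S phase spans the hours of both windows, and their G2/M phase begins later. In RNA from bulk cells, more cells in a phase and more RNA per cell cannot be told apart.

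The reads that the deposited values stand for numbered 4470164 to 12204694 per library of the windows, with a median of 10104316. The shallowest were Cycle 2 at 16 h and Cycle 1 at 18 h (5063129 reads). Pearson's r between any pair of the 25 libraries was 0.9696 to 0.992 over all genes. Fibroblast markers were abundant in every library: the summed normalised reads of 11 markers were 190200 to 217300 in Cycle 1 and 216200 to 243200 in Cycle 2. The 10 macrophage and leukocyte markers summed to 776.2 to 1216 in Cycle 1 and 2736 to 3562 in Cycle 2, mostly Lyz2, and none of them was at 0 in every library. Within a Cycle the ranges of this sum overlapped between the windows, and its part in the results below was not tested.

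At 19 to 23 h most genes of the mitotic lists rose, and more members of the S phase, replication and matrix lists fell than rose. Of 12538 genes with a mean of at least 10 normalised reads, 1285 were called higher (10.2% of those tested) and 1565 lower (12.5%) by limma with Benjamini-Hochberg adjusted p under 0.05. Most changes were small. The median log2 difference was 0.22 over the genes called higher and -0.26 over those called lower, and only 7 rose and 11 fell by at least 2-fold. Of the 2850 called genes, 2797 changed in the same direction in both Cycles. When the 2 Cycles were taken as the only replicates (1 difference per Cycle, limma), 295 genes were called higher (2.35%) and 478 lower (3.81%). With 2 values per gene, limma drew the spread in this fit mostly from all genes together. Its p-values therefore do not rest on the 2 Cycles of a gene alone. In 94 genes (0.75%) every library at 19 to 23 h lay above every library at 15 to 18 h in both Cycles, and in 66 (0.526%) every one lay below. Over all genes tested the median difference was -0.01.

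Of 54 genes in a list of G2/M expression, 50 were called higher and none lower, with a median log2 difference of 0.46. The median was 0.48 in Cycle 1 and 0.45 in Cycle 2. The 4 members not called were Ctcf (-0.08), Cbx5 (0.04), Tmpo (0.10) and Cks2 (0.26). With 1 difference per Cycle 38 of the 54 were called higher, and in 20 of the 54 the windows did not overlap in either Cycle. In a list of 43 S phase genes, 26 were called lower and 3 higher (Rrm1, Rrm2 and Tyms), with a median of -0.22. By its median the G2/M list was thus higher in the later window in both Cycles. Of its 54 genes, 23 in Cycle 1 and 20 in Cycle 2 had their highest value up to 27 h inside the later window. In 25 and 28 genes it came after 23 h, and in the rest earlier. Most of these late Cycle 1 peaks, such as those of Cdc20, Cenpa and Ube2c, fell in the single library at 24.5 h. That library stood apart, as described below, so the Cycle 1 count rests largely on it. The rise does not by itself place G2/M at these hours. The S phase list left its earlier level mainly in Cycle 1, where its median change was -0.39, against -0.08 in Cycle 2.

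**Figure D1:**
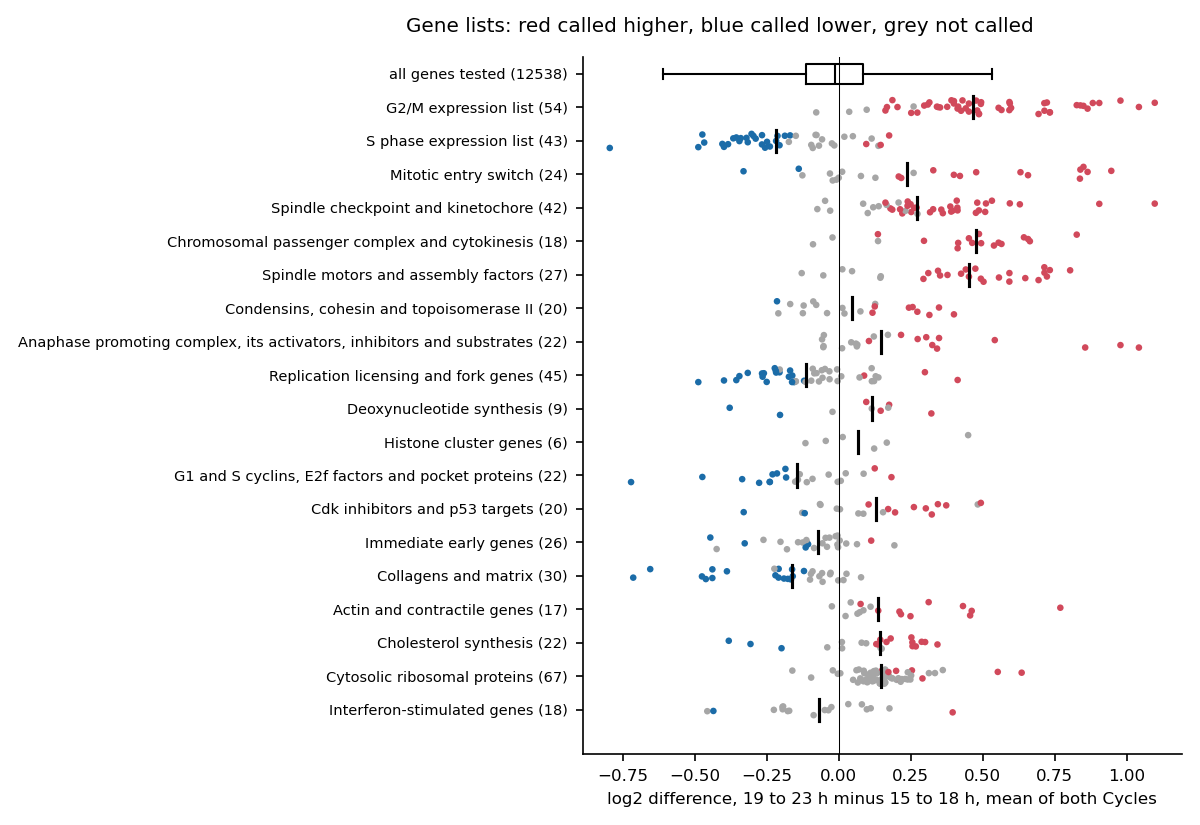
Log2 difference between 19 to 23 h and 15 to 18 h, as the mean of both Cycles (horizontal axis), for the members of each gene list (points, with the number tested in brackets), with the list's median as a black bar and all genes tested as a box (quartiles, whiskers at the 1st and 99th percentiles). In the G2/M list 50 of 54 points are red (called higher), and in the S phase list 26 of 43 are blue (called lower).

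The start-site sequences of the genes that rose most are shown because they carry the elements named above. The 6 members of the G2/M list with the largest rise and a RefSeq window, and Cdc6 of the S phase list, are given from 250 bases before to 30 bases after the annotated start, 5′ to 3′. Capitals mark the CHR letters TTTGAA or TTCGAA, the letters CCAAT, and the E2F letters TTTCCCGC or TTTGGCGC, on either strand, so that TTCAAA and ATTGG are the same motifs read from the other strand.
Cenpa (GRCm38.p6, chr5:30666636-30666915, plus strand): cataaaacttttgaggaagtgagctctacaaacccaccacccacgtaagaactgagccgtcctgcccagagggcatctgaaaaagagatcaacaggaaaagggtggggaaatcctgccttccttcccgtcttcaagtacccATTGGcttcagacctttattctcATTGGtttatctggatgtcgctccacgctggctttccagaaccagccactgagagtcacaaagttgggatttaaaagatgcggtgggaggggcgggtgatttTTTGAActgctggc
Cdc20 (GRCm38.p6, chr4:118437314-118437593, minus strand): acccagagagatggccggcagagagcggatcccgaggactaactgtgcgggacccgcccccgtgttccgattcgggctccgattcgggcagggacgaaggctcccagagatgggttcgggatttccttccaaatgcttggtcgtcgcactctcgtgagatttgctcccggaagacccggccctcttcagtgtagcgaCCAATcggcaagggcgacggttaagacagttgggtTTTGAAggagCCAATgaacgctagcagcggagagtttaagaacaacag
Ube2c (GRCm38.p6, chr2:164769679-164769958, plus strand): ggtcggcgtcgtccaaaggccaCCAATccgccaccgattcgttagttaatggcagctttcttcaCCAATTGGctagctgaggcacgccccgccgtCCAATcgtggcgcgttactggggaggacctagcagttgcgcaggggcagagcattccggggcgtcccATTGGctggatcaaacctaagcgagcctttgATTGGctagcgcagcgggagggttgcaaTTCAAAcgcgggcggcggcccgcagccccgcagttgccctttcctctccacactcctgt
Cenpf (GRCm38.p6, chr1:189688057-189688336, minus strand): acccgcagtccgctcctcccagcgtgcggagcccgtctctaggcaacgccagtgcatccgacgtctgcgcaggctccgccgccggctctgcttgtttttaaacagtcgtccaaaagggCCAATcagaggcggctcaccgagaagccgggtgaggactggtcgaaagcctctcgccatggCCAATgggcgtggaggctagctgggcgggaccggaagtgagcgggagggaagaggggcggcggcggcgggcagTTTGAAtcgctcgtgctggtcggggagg
Gas2l3 (GRCm38.p6, chr10:89443938-89444217, minus strand): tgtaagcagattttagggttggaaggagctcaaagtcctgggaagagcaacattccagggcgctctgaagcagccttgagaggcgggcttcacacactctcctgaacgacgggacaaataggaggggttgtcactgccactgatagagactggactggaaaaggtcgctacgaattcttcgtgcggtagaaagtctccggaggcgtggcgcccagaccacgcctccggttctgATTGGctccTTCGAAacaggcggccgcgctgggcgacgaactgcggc
Ccnb2 (GRCm38.p6, chr9:70421525-70421804, minus strand): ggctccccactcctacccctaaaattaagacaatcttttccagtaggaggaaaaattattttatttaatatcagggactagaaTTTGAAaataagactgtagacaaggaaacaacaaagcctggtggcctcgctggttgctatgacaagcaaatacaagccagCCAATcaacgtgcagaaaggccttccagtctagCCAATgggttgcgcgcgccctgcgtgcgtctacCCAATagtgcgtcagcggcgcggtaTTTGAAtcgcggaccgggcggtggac
Cdc6 (GRCm38.p6, chr11:98907901-98908180, plus strand): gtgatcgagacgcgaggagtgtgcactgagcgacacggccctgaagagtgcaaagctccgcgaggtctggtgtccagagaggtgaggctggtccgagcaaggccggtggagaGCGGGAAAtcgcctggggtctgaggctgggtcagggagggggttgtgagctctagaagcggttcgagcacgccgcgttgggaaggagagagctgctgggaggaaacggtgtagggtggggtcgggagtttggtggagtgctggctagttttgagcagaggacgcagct

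Each of the 6 G2/M windows held a CHR match and at least 1 CCAAT. In Cenpa the first letter of the CHR lay 16 bases after the start, in Cdc20 18 bases before it and in Ube2c 29 bases before it. Ube2c held 6 CCAAT matches, counted over both strands. Over the list, 46 of 54 genes had a window, and 32 of those held a CHR (69.6%), against 12.6% of the 9303 tested genes with a window. CCAAT was in 76.1% of the G2/M windows against 38.1%, and both motifs were in 58.7% against 5.28%. The centre of the CHR nearest the start lay a median of 14.5 bases before it in the 32 genes. Among genes called higher 18.9% held a CHR, and among genes called lower 9.2%. In the S phase list 16.7% of 30 windows held a CHR, 70% a CCAAT and 33.3% an E2F match, the last against 2.96% of the genes tested and 2.17% of the G2/M list. Within the G2/M list the median difference was 0.44 in the 32 genes with a CHR and 0.53 in the 14 without, while 31 of the 32 and 11 of the 14 were called higher (96.9% and 78.6%). The window of Ung, the S phase gene that fell most, held none of the motifs. These are matches of letters, not binding.

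Ccnb1 and Ccnb2, the B-type cyclins that activate Cdk1 for entry into mitosis, were among the genes that rose most. Ccnb1 (mm9, chromosome 13, 101548605 to 101556525, minus strand) ran from 240.7 through a median of 314.1 to 395.2 normalised reads at 15 to 18 h in Cycle 1. At 19 to 23 h it ran from 598.1 through 677.5 to 749.1. In Cycle 2 its values at 15, 16, 17 and 18 h were 214.3, 202.7, 286.3 and 318.3, and at 19 to 23 h they were 391.7, 390, 430.5, 480 and 511.2. The windows did not overlap in either Cycle, and within the earlier window Ccnb1 was higher at 18 h than at 15 h in both. Its log2 difference was 0.95 ± 0.086 (SE), a 1.93-fold rise (limma, adjusted p = 1.8e-07), and the adjusted p was 0.0065 with 1 difference per Cycle. Ccnb2 rose by 0.86 ± 0.10 (adjusted p = 2.1e-06), with overlap between the windows in Cycle 2.

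The other members of the switch into mitosis had lower averaged log2 differences than Ccnb1, and some of them were close to Ccnb2. Of 24 genes, 13 were called higher and 2 lower, with a median log2 difference of 0.24. Plk1, the kinase that acts at several steps from G2 to cytokinesis, averaged 769.8 ± 140 (SD, n = 7) and then 1557 ± 105 (n = 9) in Cycle 1, and 669.7 ± 137 (n = 4) and then 1033 ± 97.6 (n = 5) in Cycle 2. Its log2 difference was 0.84 ± 0.082. Aurka, the centrosomal Aurora kinase, rose by 0.85 ± 0.070 and Cdc25c, a phosphatase that activates Cdk1, by 0.84 ± 0.066, both without overlap between windows in either Cycle. Cdc25b, of the same family, rose by 0.63 ± 0.070. Cdk1 itself rose less. Its means were 2895 and 4139 in Cycle 1 and 2094 and 2811 in Cycle 2, a log2 difference of 0.48 ± 0.060. Ccna2, the cyclin used in both S phase and G2, rose by 0.42 ± 0.050, again without overlap. Foxm1, which activates many genes of this group, rose by 0.33 ± 0.068 (adjusted p = 0.0012) with overlapping windows in Cycle 1, and its adjusted p was 0.053 with 1 difference per Cycle. Wee1, a kinase that restrains Cdk1, rose by 0.21 ± 0.041, while the difference of the related kinase Pkmyt1 was -0.03 ± 0.066 (adjusted p = 0.78). The 2 genes called lower were Mybl2 (-0.33), the B-Myb partner of MuvB, and Cdc25a (-0.14), the Cdc25 phosphatase that also acts in G1. Mybl2 fell by 0.60 in Cycle 1 and by 0.06 in Cycle 2, and the test of that gap gave an adjusted p of 0.013. With 1 difference per Cycle 10 of the 24 were called higher.

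Among genes that act at the end of mitosis, a few activators and substrates of the anaphase promoting complex rose steeply and most of its subunits did not. Cdc20, the activator of the anaphase promoting complex, ran from 437.2 through 652.2 to 754.6 at 15 to 18 h in Cycle 1 and from 1158 through 1533 to 1721 at 19 to 23 h. In Cycle 2 it read 499.2, 534.8, 636.2 and 753.2 and then 935.3, 902.7, 1049, 1023 and 1273. All 5 later values lay above all 4 earlier ones, and Cycle 1 showed the wider gap. The averaged log2 difference of Cdc20 was 1.04 ± 0.096 (adjusted p = 1.8e-07), 1.30 in Cycle 1 and 0.78 in Cycle 2, and the test of that gap gave an adjusted p of 0.26. Ube2c, the ubiquitin-conjugating enzyme that works with the complex, rose by 0.98 ± 0.092, and Pttg1 (securin), its substrate that guards separase, by 0.86 ± 0.081. Espl1, which is separase, rose by 0.35 ± 0.075. Fzr1, the activator that takes over late in mitosis, rose by 0.54 ± 0.061. Of 22 genes of the complex with its activators, inhibitors and substrates, 11 were called higher and none lower, with a median of 0.15, and 5 were called higher with 1 difference per Cycle. Of the subunits of the complex itself Cdc23 rose most (0.34 ± 0.039), and Anapc5, Anapc11, Anapc13 and Anapc15 were also called. Anapc1, Anapc2, Anapc4, Anapc7, Cdc16 and Cdc27 were within 0.07 of 0 and were not called.

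Centromere and checkpoint genes rose as a group. Of 42 genes of the spindle checkpoint and kinetochore, 31 were called higher and none lower, with a median of 0.27. Cenpa, the histone H3 variant that marks centromeres, had the second largest rise of all named genes: 257.5 to 509.3 normalised reads at 15 to 18 h and 912.1 to 1217 at 19 to 23 h in Cycle 1. In Cycle 2 its values were 363.3, 403.5, 445.6 and 516.7 and then 607.8, 641.4, 708.4, 751.2 and 875.6. Each later library was above each earlier one in both Cycles, and the log2 difference was 1.10 ± 0.094 (adjusted p = 9.2e-08). Cenpf, which binds the outer kinetochore, rose by 0.90 ± 0.13 and Cenpe, its motor protein, by 0.59 ± 0.12. The checkpoint kinase Bub1 rose by 0.48 ± 0.080, Bub1b (BubR1) by 0.63 ± 0.081, Mad2l1 (Mad2) by 0.36 ± 0.048 and Ttk (Mps1) by 0.25 ± 0.058. With 1 difference per Cycle 16 of the 42 were called, and Ttk and Mad2l1 were not (adjusted p = 0.14 and 0.056).

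Genes of the spindle and of cytokinesis gave the fullest counts after the G2/M list. The mitotic lists share genes with the G2/M list, for example Cenpa, Nusap1 and Kif23, so their counts are not independent of it. Of 27 spindle motors and assembly factors 21 were called higher and none lower (median 0.45), led by Knstrn (0.80 ± 0.085), Nusap1 (0.73 ± 0.091), Nek2 (0.72 ± 0.11) and Ckap2 (0.71 ± 0.088). Tpx2, which targets Aurora A to the spindle, rose by 0.44 ± 0.059 and Hmmr by 0.59 ± 0.11. Of 18 genes of the chromosomal passenger complex and cytokinesis 15 were called higher and none lower (median 0.48). Kif23, a subunit of centralspindlin, rose by 0.83 ± 0.11, Prc1, which bundles the midzone, by 0.64 ± 0.080, Birc5 (survivin) by 0.57 ± 0.075 and Aurkb by 0.45 ± 0.069. Chromosome structure genes changed less. Of 20 condensin, cohesin and topoisomerase II genes 8 were called higher and 1 lower (Ncapd3, -0.21), with a median of 0.05. The median was -0.03 in Cycle 1 and 0.13 in Cycle 2, and with 1 difference per Cycle 1 of the 20 was called higher. Ncapd2 rose by 0.40 ± 0.059, Ncapg by 0.35 ± 0.052, Top2a by 0.31 ± 0.061 and Smc4 by 0.27 ± 0.073. Mki67, the proliferation marker that coats mitotic chromosomes, rose by 0.34 ± 0.091. With 1 difference per Cycle Ncapg, Top2a, Smc4 and Mki67 were not called. Where a mitotic list above had 0 genes called lower by limma, edgeR and DESeq2 called 0 too, and at an unadjusted p under 0.05 limma had 1 lower gene in the kinetochore list, 1 in the cytokinesis list and 0 in the others.

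**Figure D2:**
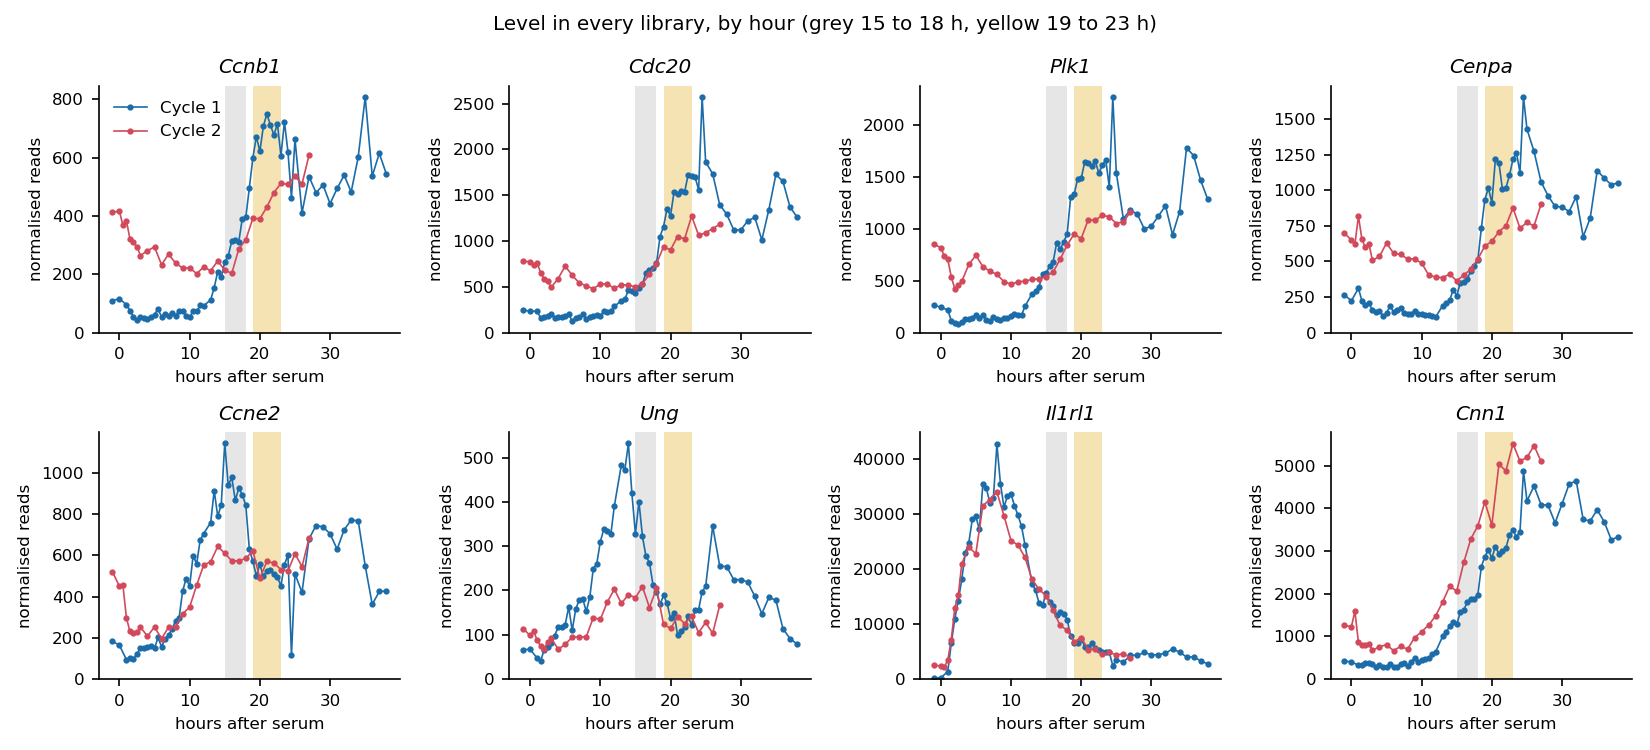
Normalised reads (vertical axis, from 0) against hours after serum for 8 genes in every library of Cycle 1 (blue) and Cycle 2 (red), with 15 to 18 h shaded grey and 19 to 23 h yellow. Ccnb1, Cdc20, Plk1 and Cenpa are higher in each yellow library than in each grey one in both Cycles, Ccne2 falls between them in Cycle 1 to near the level that Cycle 2 holds in both, and Il1rl1 is lower in each yellow library than in each grey one.

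The 10 genes called higher with the largest difference held 3 that were in none of the lists. Cdkn3, a phosphatase that acts on Cdk1 and Cdk2, rose by 1.12 ± 0.15. Pif1, a DNA helicase, rose by 1.04 ± 0.15 and Aspm, a protein of the spindle pole, by 0.87 ± 0.17. Gas2l3, which links actin and microtubules and is a member of the G2/M list, rose by 0.88 ± 0.17. Its highest value up to 27 h came at 1.5 h after serum, 348.8 in Cycle 1 and 528.6 in Cycle 2. Both lay above its means at 19 to 23 h (239.3 and 239.8). The remaining 6 were Cenpa, Cdc20, Ube2c, Ccnb1, Cenpf and Ccnb2. The 5 genes outside the G2/M list whose levels followed Ccnb1 most closely over the 25 libraries were Plk1 (Pearson r = 0.985), Knstrn (0.98), Cdc25b (0.963), Trim59 (0.961) and Troap (0.96), and all 25 points share these libraries and their scaling.

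The Cycles reached the windows from different levels. Relative to 15 to 18 h of the same Cycle, the median of the G2/M list in Cycle 1 was -1.15 in the starved libraries, fell to -2.58 at 4 to 6.5 h, was -1.27 at 11 to 14 h and then 0.48 at 19 to 23 h. In Cycle 2 the starved libraries were already 0.53 above 15 to 18 h, the low point at 7 to 10.5 h was -0.42, and 19 to 23 h stood at 0.45. Ccnb1 shows the same: 112.8 normalised reads as the mean of 2 starved libraries in Cycle 1 and 414.6 in Cycle 2, the latter close to the 440.7 of Cycle 2 at 19 to 23 h. Inside the windows the list went in Cycle 1 from -0.28 at 15 h to 0.28 at 18 h and to its highest value of 0.60 at 22 h. In Cycle 2 it went from -0.18 at 15 h to 0.10 at 18 h and 0.53 at 23 h, so the SD of a window includes this trend. The level was kept after the window: 0.38 at 24 to 27 h in Cycle 1 and 0.52 in Cycle 2. In Cycle 1 the list fell to 0.25 at 28 to 33 h and stood at 0.69 at 34 to 38 h. The Cycle 1 library at 24.5 h, outside the windows, stood apart: Cdc20 read 2570 there, with 1559 at 24 h and 1862 at 25 h, and Ccne2 read 116.2, with 602.9 and 510.6 on either side.

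**Figure D3:**
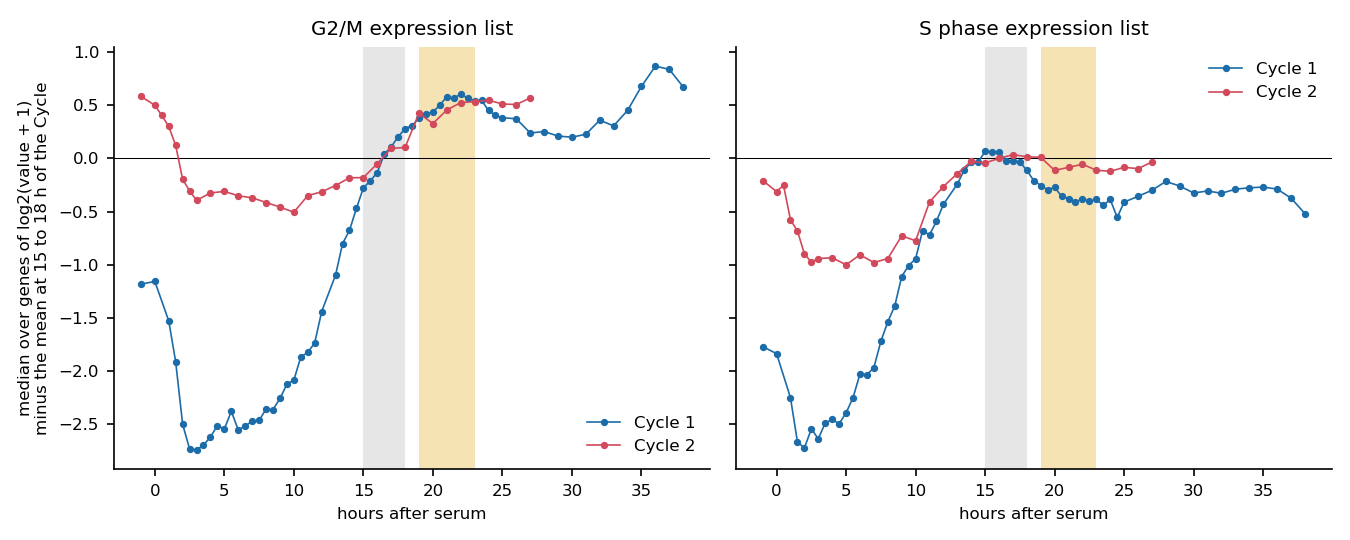
Median over the 54 genes of the G2/M list (left) and the 43 genes of the S phase list (right) of log2(value + 1) minus the mean at 15 to 18 h of the same Cycle (vertical axis), against hours after serum, for Cycle 1 (blue) and Cycle 2 (red), with the windows shaded. The G2/M list rises from the grey to the yellow window by 0.48 and 0.45, and the S phase list drops by 0.39 in Cycle 1 and 0.08 in Cycle 2.

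Most of the S phase list fell, and its change was lower in Cycle 1 than in Cycle 2. All 43 genes of the S phase list had a lower difference in Cycle 1 than in Cycle 2, where over all 12538 genes 6319 did. A test of the difference between the Cycles called 94 genes of all tested (0.75%), 65 of them with the lower change in Cycle 1, and 11 of the 43 S phase genes were among those 65. That count of 11 ranged from 1 to 17 over the alternatives. It was 4 without Cycle 2 at 18 h or at 19 h, 5 without 22 h, and 1 with only the hours sampled in both Cycles or with the 18.5 h library in the earlier window. Ccne2, the cyclin E that starts replication, showed it most clearly. In Cycle 1 it ran from 842.3 through 926.4 to 1144 at 15 to 18 h and from 453.5 through 511.3 to 571.2 at 19 to 23 h. In Cycle 2 it read 611, 573.4, 573.7 and 585.6 and then 622.4, 489.7, 571.1, 562.5 and 531.7. The Cycle 1 windows did not overlap. In Cycle 2 the value at 19 h lay above all 4 earlier ones and the other 4 later values lay below them, by small margins at 21 and 22 h. The log2 difference of Ccne2 was -0.87 in Cycle 1 and -0.08 in Cycle 2, and the gap of 0.78 ± 0.098 had an adjusted p of 0.00042. Cdc6, which loads the replicative helicase, fell by 0.80 in Cycle 1 and by 0.18 in Cycle 2 (gap 0.62 ± 0.13, adjusted p = 0.027). Dck, a kinase of the nucleoside salvage route, fell by 0.64 and by 0.11 (gap 0.53, adjusted p = 0.0021). Over 41 alternatives the gap stayed called in all for Ccne2 and Dck and in 36 for Cdc6. The count of all such genes moved with single libraries, to 29 without Cycle 2 at 19 h, and was 3 with only the hours sampled in both Cycles. Of the G2/M list 0 genes were called for a gap by limma, with 7 at an unadjusted p under 0.05, 0 called by edgeR and 3 by DESeq2, and 1 to 6 were called in 9 of the 41 alternatives.

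With the averaged difference, 19 of 45 replication licensing and fork genes were called lower and 3 higher, with a median of -0.11 that was -0.20 in Cycle 1 and -0.04 in Cycle 2. Pcna, the sliding clamp, fell by 0.40 ± 0.056, Mcm6 by 0.36 ± 0.058, Mcm3 by 0.25 ± 0.036 and Mcm5 by 0.21 ± 0.043, all subunits of the helicase apart from Pcna. The differences of Orc1 (-0.15 ± 0.056, adjusted p = 0.057) and Cdc45 (-0.15 ± 0.075, adjusted p = 0.16) missed the threshold. Dbf4, the activating subunit of the Cdc7 kinase, rose by 0.41 ± 0.048, with Rpa3 (0.30) and Orc4 (0.09). With 1 difference per Cycle 0 of the 45 were called lower and 1 higher by limma, and 14 were lower at an unadjusted p under 0.05. Ung, which removes uracil from DNA, fell most: 196.7 to 400.5 and then 99.08 to 188.8 in Cycle 1, and in Cycle 2 184, 208.5, 161.5 and 204.6 and then 124.1, 114.2, 140.6, 125.4 and 141.3. Its windows did not overlap in either Cycle, and its log2 difference was -0.79 ± 0.11 (adjusted p = 1.9e-05). With 1 difference per Cycle only 3 S phase genes were called lower, against 26 in the main test. Ung was called (adjusted p = 0.013), while Cdc6, Ccne2 and Pcna were not (0.088, 0.15 and 0.069).

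Of 9 genes of deoxynucleotide synthesis tested, 4 were called higher and 2 lower, and with 1 difference per Cycle 0 were called in either direction by limma, with 1 higher and 1 lower at an unadjusted p under 0.05. Tk1 (0.32 ± 0.088), Tyms (0.18 ± 0.062), Rrm2 (0.15 ± 0.036) and Rrm1 (0.10) were called higher, and Dck was called lower (-0.38 ± 0.040). Of the 6 histone cluster genes that passed the filter, of 19 in the table, 0 were called by limma, edgeR or DESeq2, and 1 had an unadjusted p under 0.05 in limma. Poly-A RNA was sequenced, and how fully it holds histone transcripts was not tested. These 6 genes therefore do not show whether histone expression at large changed. Among 22 G1 and S cyclins, E2f factors and pocket proteins 10 were called lower and 2 higher (median -0.15, with -0.28 in Cycle 1 and -0.03 in Cycle 2). Ccne1 fell by 0.33 ± 0.093, E2f1 by 0.24 ± 0.065, E2f6 by 0.28 ± 0.047 and the scarce E2f2 by 0.72 ± 0.24, while Ccnd1 rose by 0.18 ± 0.048 and E2f5 by 0.13. With 1 difference per Cycle 1 of the 22 was called lower. Of 20 Cdk inhibitors and p53 targets 9 were called higher and 2 lower (median 0.13, with 0.22 in Cycle 1 and 0.04 in Cycle 2). With 1 difference per Cycle 3 of the 20 were called higher and 0 lower by limma, with 1 lower at an unadjusted p under 0.05. Cdkn2b rose by 0.37 ± 0.053, Cdkn2a by 0.34 ± 0.099 and Cdkn1b (p27) by 0.20 ± 0.044, and Cdkn1c (p57) fell by 0.33 ± 0.097. Of these, Cdkn2a, Cdkn1b and Cdkn1c were not called with 1 difference per Cycle. Gtse1, which led this list at 0.49 ± 0.067, is also a G2/M gene. Cdkn1a (p21) was called at 0.10 ± 0.037 (adjusted p = 0.045) with differences of 0.21 and 0.00 in the Cycles. Ccng2, a cyclin of quiescent cells, gave 0.07 ± 0.079 (adjusted p = 0.57).

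**Figure D4:**
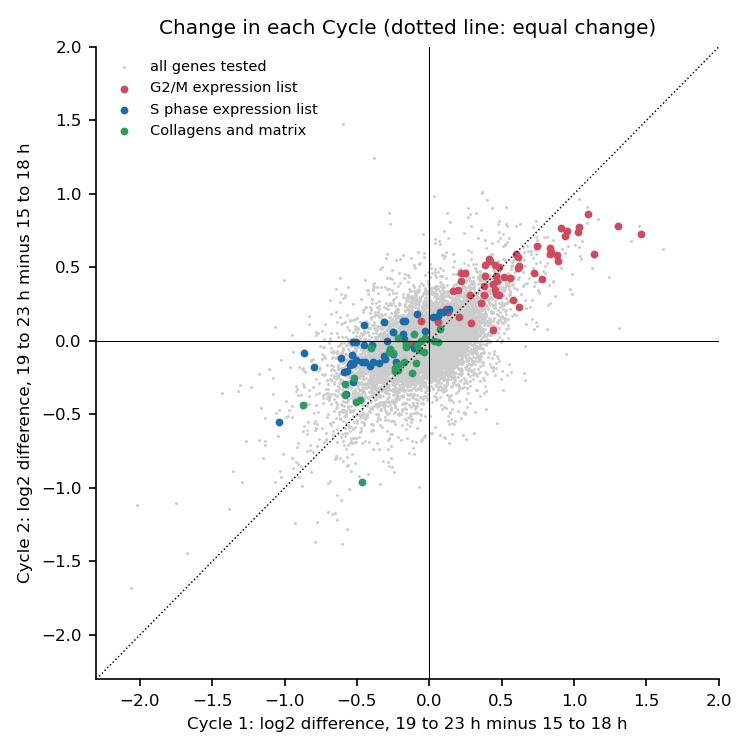
Log2 difference between 19 to 23 h and 15 to 18 h in Cycle 1 (horizontal axis) and Cycle 2 (vertical axis) for the 12538 genes tested (grey), with the G2/M list red, the S phase list blue and the collagens and matrix list green. All 43 blue points lie above the dotted line of equal change, and the red points spread along it.

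The 10 genes called lower with the largest difference were in none of the cell cycle lists. Serpinb2, an inhibitor of plasminogen activators, fell most, by 1.87 ± 0.21 on the log2 scale (adjusted p = 1.1e-06). It ran from 901.1 through 1112 to 2047 at 15 to 18 h and from 172.6 through 318 to 524.1 at 19 to 23 h in Cycle 1. In Cycle 2 it read 1804, 1215, 827.8 and 727.4 and then 421.4, 413.9, 317.9, 351.8 and 214.3. In both Cycles the level declined through both windows, and no later library overlapped the earlier ones. The matrix proteases Mmp10 (stromelysin) and Mmp13 (collagenase) fell by 1.56 ± 0.19 and 1.43 ± 0.17. Mmp13 in Cycle 2 was 3474, 2767, 2145 and 2078 and then 1227, 2143, 1144, 930.2 and 850.5, so the 20 h library reached into the range of the earlier window. Il1rl1, the receptor of interleukin-33, fell by 1.01 ± 0.095: 10770 to 15660 and then 4970 to 7351 in Cycle 1, and 8873 to 15090 and then 4462 to 7516 in Cycle 2. It had stood at 242.2 in the starved libraries of Cycle 1 and at 34030 at 7 to 10.5 h, so the windows sample its way down. Aldh1a3 (-1.13 ± 0.12), Nptx1 (-1.57 ± 0.20), Plat (-0.92 ± 0.13), Col5a3 (-0.91 ± 0.11), Shank3 (-0.91 ± 0.098) and Igfbp3 (-0.90 ± 0.11) made up the 10. All 10 were also called with 1 difference per Cycle (limma, adjusted p of 0.0015 to 0.0086), where the spread comes mostly from all genes together.

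**Figure D5:**
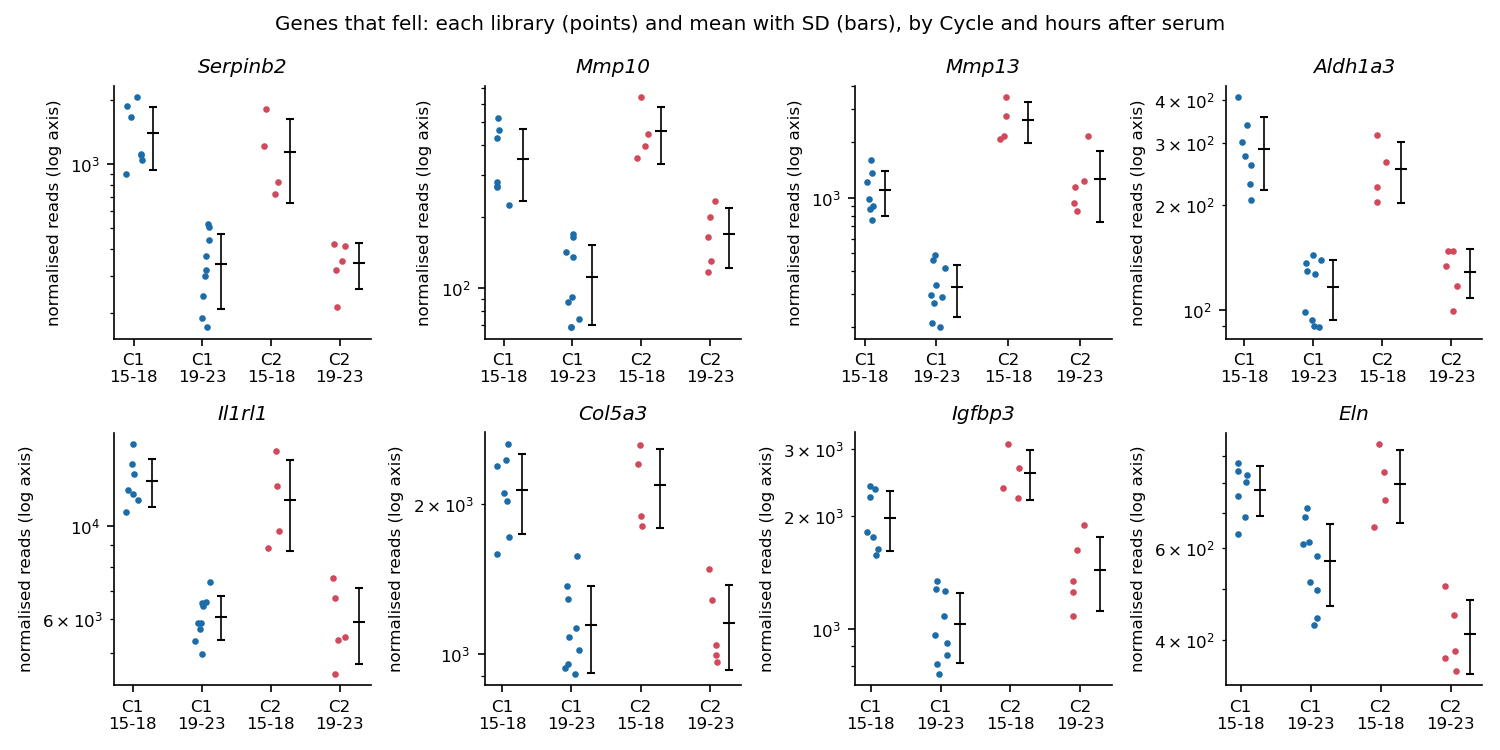
Normalised reads in each library (points, log axis) and their mean with SD (bars) for 8 genes that fell, by Cycle and window (C1 and C2 with hours after serum). For Serpinb2, Mmp10, Aldh1a3, Il1rl1, Col5a3 and Igfbp3 every later library lies below every earlier one of the same Cycle, while Mmp13 overlaps in Cycle 2 and Eln in Cycle 1.

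The matrix and contractile lists changed in opposite directions. Of 30 collagens and matrix genes 16 were called lower and 0 higher (also 0 by edgeR, DESeq2 or at an unadjusted p under 0.05), with a median of -0.16, and 6 were called lower with 1 difference per Cycle. Eln (elastin) went from 774.9 ± 85.3 to 565.2 ± 102 in Cycle 1 and from 796.9 ± 126 to 409.9 ± 65.7 in Cycle 2, a log2 difference of -0.71 ± 0.091. Lum and Dcn, proteoglycans that bind collagen, fell by 0.65 ± 0.12 and 0.44 ± 0.10, Tnc by 0.47 ± 0.055 and Thbs2 by 0.46 ± 0.054. In Cycle 2 the 20 h library read 2510 for Lum where the other 4 read 1062 to 1270, and without it the log2 difference of Lum was -0.76 and that of Dcn -0.54. Col3a1 fell by 0.44 ± 0.072. Of 17 actin and contractile genes 10 were called higher and 0 lower by each of these counts (median 0.14), and 4 were called higher with 1 difference per Cycle. Cnn1 (calponin) rose by 0.77 ± 0.087, from 1284 to 1972 up to 2838 to 3487 in Cycle 1, and in Cycle 2 from 2057, 2730, 3281 and 3587 to 4150, 3605, 5028, 4875 and 5511. Its windows did not overlap in either Cycle. Acta2, the smooth muscle actin, rose by 0.46 ± 0.055, Myl9 by 0.46 ± 0.060 and Tpm2 by 0.43 ± 0.068. The windows of Acta2, Myl9 and Tpm2 overlapped in Cycle 2, and of the 17 genes only Cnn1 had no overlap in either Cycle. Of the genes that mark skeletal muscle, 3 of 4 tested were called higher (Actc1 0.51 ± 0.087, Acta1 0.26 ± 0.054 and Des 0.23 ± 0.067), and the fourth, Myog, a transcription factor of muscle cells, gave -0.28 and was not called. The summed level of the 5 muscle markers in the table was 1215 to 1427 and then 1372 to 1745 in Cycle 1, and 1334 to 1735 and then 1628 to 2200 in Cycle 2, and its part in the rise of the contractile genes was not tested.

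Among 22 genes of cholesterol synthesis 12 were called higher and 3 lower (median 0.14), but with 1 difference per Cycle 0 were called higher and 1 lower by limma, with 7 higher at an unadjusted p under 0.05. Examples from the averaged difference were Pmvk at 0.34 ± 0.081 and Tm7sf2 at -0.38 ± 0.12. Of 67 ribosomal protein genes 8 were called higher and none lower, a share of calls near that of all genes, with a median of 0.15 that was 0.26 in Cycle 1 and 0.06 in Cycle 2. Rps24 rose by 0.29 ± 0.087 and Rpl27a by 0.25 ± 0.070. Of 26 immediate early genes 4 were called lower and 1 higher (median -0.07). Over all genes tested 12.5% were called lower and 10.2% higher, so the first share is near that of all genes and the second below it. Egr2 fell by 0.45 ± 0.073, Nr4a2 by 0.33 ± 0.11 and Myc by 0.11 ± 0.031, and Junb and Jun were called at 0.11 and -0.11. Of 18 interferon-stimulated genes only Gbp2 was called higher (0.40 ± 0.096) and only Oasl2 lower (-0.43 ± 0.16), both below the shares of all genes. The lists of cell type markers are small, so 1 call moves their share widely. Among them, 2 of 11 of fibroblasts were called higher and 4 lower, and 2 of 9 of macrophages lower (Cd14 -0.33 ± 0.10 and Csf1r -0.28 ± 0.080). Of 4 endothelial markers Cdh5 was called lower (-0.97 ± 0.22, at a mean of 13.7 normalised reads) and Eng higher (0.11 ± 0.030), 1 of 3 epithelial markers was called lower (Cldn4, -0.35 ± 0.12), and of 5 neural markers 0 were called by limma, edgeR or DESeq2, with 2 lower at an unadjusted p under 0.05 in limma. Of the erythroid markers only Alas2 was in the table, and it was below the filter.

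Reads were counted on both strands, so a gene and a transcript that overlaps it on the other strand cannot be told apart. How reads that map to several places were treated is not given in the sources used here, and values of Ccnb1, ribosomal protein and histone genes, which have near-identical copies, are uncertain for that reason.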

How the data were processed

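Poly-A RNA of CF-1 mouse embryonic fibroblasts was sequenced as single-end 50-base reads, 12 libraries to a lane. The deposited values are a signal: exon reads per gene on both strands that the authors counted with HOMER (analyzeRepeats) after alignment with STAR to mm9 and then normalised. They are not raw counts, so the test was limma 3.58.1 (R 4.3.3) on log2(value + 1), with 1 mean per Cycle and window, the average of the within-Cycle differences as contrast, genes with a mean of at least 10 over the 25 libraries, two-sided p-values and Benjamini-Hochberg adjustment, called under 0.05. A fold on this scale understates changes of low genes. A second contrast gave the difference between the Cycles. Levels are not per gene length and were not compared between genes.

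In each library 1 read was worth 0.72 to 1.931 units, and 86.8 to 90.9% of values lay within 0.1 of a whole read. Among low values of genes with 1 transcript the share was 100%. Another 3291 genes average several transcripts, and how much of the remainder came from them was not counted. edgeR 4.0.16 and DESeq2 1.42.0 were run on these recovered reads as alternatives. The table holds 1 further column that matches no library label, and it was not used. Positions of genes are mm9. Promoter windows are RefSeq, GRCm38.p6, from 250 bases before to 30 after the start, the first listed window per gene (27025 genes).

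Named genes were a fixed set of cell cycle genes, the 10 genes called higher and the 10 called lower with the largest difference (mean of at least 50, same sign in both Cycles), and up to 4 members per list with the largest difference. Results of a few genes that the rule names are not reported here. Members of small counts named beyond this rule were chosen after their values were seen. The comparison, the 26 gene lists and the alternatives were chosen with earlier results of these data known. Replicate numbers are hours in order within a Cycle and pair no cultures. The Cycle was the replicate block.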

Additional observations from a re-analysis of the deposited data

Results flagged for a closer look

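Of 464 groups of 4 to 10 libraries examined for the named genes, 25 (5.39%) held a library set apart from the others by Dixon's 95% criterion, where chance gives about 1 in 20. Each value is followed by the nearest other value of its group, in normalised reads.

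The Cycle 2 library at 20 h held 7 of them. It was high for Ccng2 (201, next 141), Plat (499, next 322), Hist3h2a (114, next 79.3), Lum (2510, next 1270) and Dcn (6750, next 3510), and low for Ncapg (745, next 779) and Nes (1520, next 1690). Without it the log2 difference was -0.76 for Lum, -0.54 for Dcn and -1.00 for Plat, each further from 0 than with it, and each still called by limma.

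In the other Cycle 2 libraries Foxm1 at 17 h read 1080 (next 917), Hmmr at 17 h 612 (536), Cdkn3 at 18 h 87.4 (59.8), Wee1 at 22 h 487 (437) and Nek2 at 22 h 518 (467). At 15 h Top2a read 2310 (2780), Mcm3 1680 (1910) and Nptx1 118 (63.7). At 19 h Pcna read 558 (510) and Tnc 46600 (41600).

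In Cycle 1, 15 h was low for Cdkn1a (2240, next 2480), Myl9 (6850, next 7950) and Tpm2 (5880, next 6840). The library at 18 h, one of the shallower ones, read 474 for E2f6 (569) and 23.8 for Cldn4 (40.4). Ncapg read 858 at 19 h (971), Tnc 27100 at 19.5 h (30400) and Oasl2 78.6 at 21.5 h (43.2).

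The change between the windows differed between the Cycles, by the interaction contrast in limma, for Ccne2 (0.784 higher in Cycle 2, adjusted p = 0.00042), Cdc6 (0.619, adjusted p = 0.027) and Dck (0.532, adjusted p = 0.0021), each falling less in Cycle 2. Of the genes named by rule these 3 were called, and Mybl2, named as 1 of a count of 2, also differed (adjusted p = 0.013).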

How the results depend on the processing

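The 1285 genes higher and 1565 lower were within 1.5 times of these counts under other pseudocounts, filters, TMM rescaling (1471 and 1466), median centring (1373 and 1518), edgeR (1479 and 1450) and DESeq2 (1508 and 1490). They were 295 and 478 with 1 difference per Cycle, 853 and 1043 with no replicate block, that is with Cycle left out of the fit, and 105 and 71 in Cycle 2 alone. Leaving out each library in turn gave 924 to 1587 higher and 1187 to 1780 lower. The count of genes differing between the Cycles (94) was the least stable: 57 with no filter on low values, 236 with library weights, 176 with DESeq2, 3 with the hours sampled in both Cycles, 50 with 15 to 17 h against 20 to 23 h, 14 with the 18.5 h library in the earlier window, and 29 to 101 when each library was left out. It fell below 63 without Cycle 1 at 15 h (51), 17 h (62), 17.5 h (47) or 20.5 h (60) and without Cycle 2 at 16 h (43), 17 h (37), 18 h (60), 19 h (29), 21 h (51) or 22 h (32). Among alternatives chosen after seeing the data, it was 46 without the shallowest library of each Cycle (Cycle 1 at 18 h, Cycle 2 at 16 h) and 305 with a slope within the windows. Of the G2/M list 49 to 51 members were called higher when each library was left out, and 27 in Cycle 2 alone. Of the S phase list 23 to 27 were called lower, 3 with 1 difference per Cycle and 1 in Cycle 2 alone. Of 108 named genes called, 69 kept the call with 1 difference per Cycle, 84 with no replicate block, 94 in Cycle 1 alone and 41 in Cycle 2 alone, and none changed direction in these fits. Cdkn1a, Cldn4, Des, E2f2, Junb, Nr4a2, Oasl2, Rpl23a, Rps24 and Tyms lost the call when some library was left out. Cycle 2 alone has 9 libraries, and the cause of the other changes was not tested. Depth limits genes such as E2f2 and Cdh5.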
